A study of Mus musculus with 9 samples.

Results

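The transcripts of the aminoacyl-tRNA synthetases were followed in the C2C12 line, mouse myoblasts that form myotubes when they fuse. The members were the 37 genes whose mouse symbol is 1 amino-acid letter followed by ars, with nothing, 1 or 2 after it, together with Eprs, Farsa and Farsb, among the 54307 rows of the expression table, of which 51482 had a symbol. Of the 37, 20 encode cytosolic enzymes and 17 encode mitochondrial ones. Expression was given as FPKM, a fragment count divided by gene length and by the mapped reads of the library, so levels can be set side by side between genes of different length.

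RNA of 3 groups with 3 libraries each had been sequenced: control cells (NC), cells given 25 mmol/L glucose (H), and cells given 25 mmol/L glucose with 200 nmol/L liraglutide (HL), each for 48 h. Liraglutide is a drug that acts on the receptor of glucagon-like peptide-1, a gut hormone. The 3 groups share 1 cell line and 1 culture time, and the glucose concentration of NC is not stated in the sources used here. The study's methods speak of independent repeats and biological replicates in general, without saying which cultures gave the libraries. If the libraries of a group came from 1 culture, the p-values measure only technical differences between these samples. The FPKM totals were 757000 to 765681 (NC), 649733 to 683362 (H) and 698627 to 731929 (HL), and the estimated depth was 16.3 to 21.5 M reads per library. That estimate used genes with 1 annotated transcript longer than 3000 bases. It assumed that their most common level within a preset range stood for 1 read. Of the myoblast markers, 7 of 8 had a mean of at least 1 FPKM, and their summed level was 423 to 437 FPKM in NC, 293 to 439 FPKM in H and 615 to 639 FPKM in HL. Most of it came from Des and Itga7, which with Myf5, Cdh15 and Msc were higher in HL than in NC. Myod1 was lower, at 18.0 to 18.5 FPKM in NC and 12.7 to 13.9 FPKM in HL. Vcam1 was also lower, at 48.1 to 49.0 FPKM in NC and 29.4 to 31.4 FPKM in HL, and Pax7 overlapped. The leukocyte and macrophage list summed to 5.39 to 6.65 FPKM in NC, 106 to 169 FPKM in H and 19.4 to 20.4 FPKM in HL. That sum was carried by Csf1r and Cd68, 2 of 8 genes, which differed in HL. Csf1r was at 0.31 to 0.69 FPKM in NC, 91.5 to 149 FPKM in H and 0.25 to 0.28 FPKM in HL. Cd68 was at 4.31 to 5.58 FPKM in NC and 18.3 to 19.5 FPKM in HL, with HL inside the range of H. Tyrobp was at 0 in every library, and Ptprc and Adgre1 stayed under 0.06 FPKM. The fused muscle (myotube) markers summed to 17.2 to 23.1 FPKM in NC, 13.9 to 16.8 FPKM in H and 35.1 to 41.4 FPKM in HL. Most of that sum came from Mylpf, Acta1 and Tnnt3, and 4 of the 7 markers had a mean of at least 1 FPKM. Mylpf, Acta1, Tnnt3, Myog and Myh3 were higher in HL than in NC. Ckm overlapped, and so did Mymk, at 0.55 to 1.28 FPKM in NC and 0.26 to 0.78 FPKM in HL. Transcripts of the mitochondrial genome took 6.48% to 7.28% of the FPKM total of NC libraries, 7.24% to 9.47% of H and 9.19% to 11.4% of HL. The part of these changes in the results given here was not tested. In bulk samples, fewer cells of a type and less RNA per cell cannot be told apart.

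An aminoacyl-tRNA synthetase joins an amino acid to the tRNAs that decode it, and so supplies the ribosome. Cells keep separate genes for the cytosol and for the mitochondrial matrix, where the proteins encoded by the mitochondrial genome are made. Gars and Kars serve both places, glutaminyl-tRNA in mitochondria is made by an indirect route, and Eprs carries the glutamyl and prolyl activities in 1 chain. In the cytosol several of these enzymes are held in the multisynthetase complex with the scaffold proteins Aimp1, Aimp2 and Eef1e1. Many of the cytosolic genes are known targets of ATF4, the transcription factor of the amino acid and integrated stress responses.

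All 37 members were at or above 1 FPKM in every one of the 9 libraries. The cytosolic genes stood well above the mitochondrial ones, with a median of the NC means of 85.2 FPKM over 20 genes against 9.08 FPKM over 17 genes. Sars, which charges serine tRNAs, had the highest mean over all libraries, with NC libraries at 246, 245 and 247 FPKM, H libraries at 332, 246 and 296 FPKM and HL libraries at 281, 305 and 285 FPKM. The lowest was Mars2, the mitochondrial methionyl enzyme, at 1.68, 1.77 and 1.75 FPKM in NC, 1.36, 1.57 and 1.70 FPKM in H and 1.83, 1.77 and 1.69 FPKM in HL. The lowest cytosolic gene, Wars, had an NC mean of 38.3 FPKM, above the NC mean of every mitochondrial gene. In H this order was broken, since Lars2 stood at 44.8 FPKM, above the 29.5 FPKM of Wars.

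**Figure D1:**
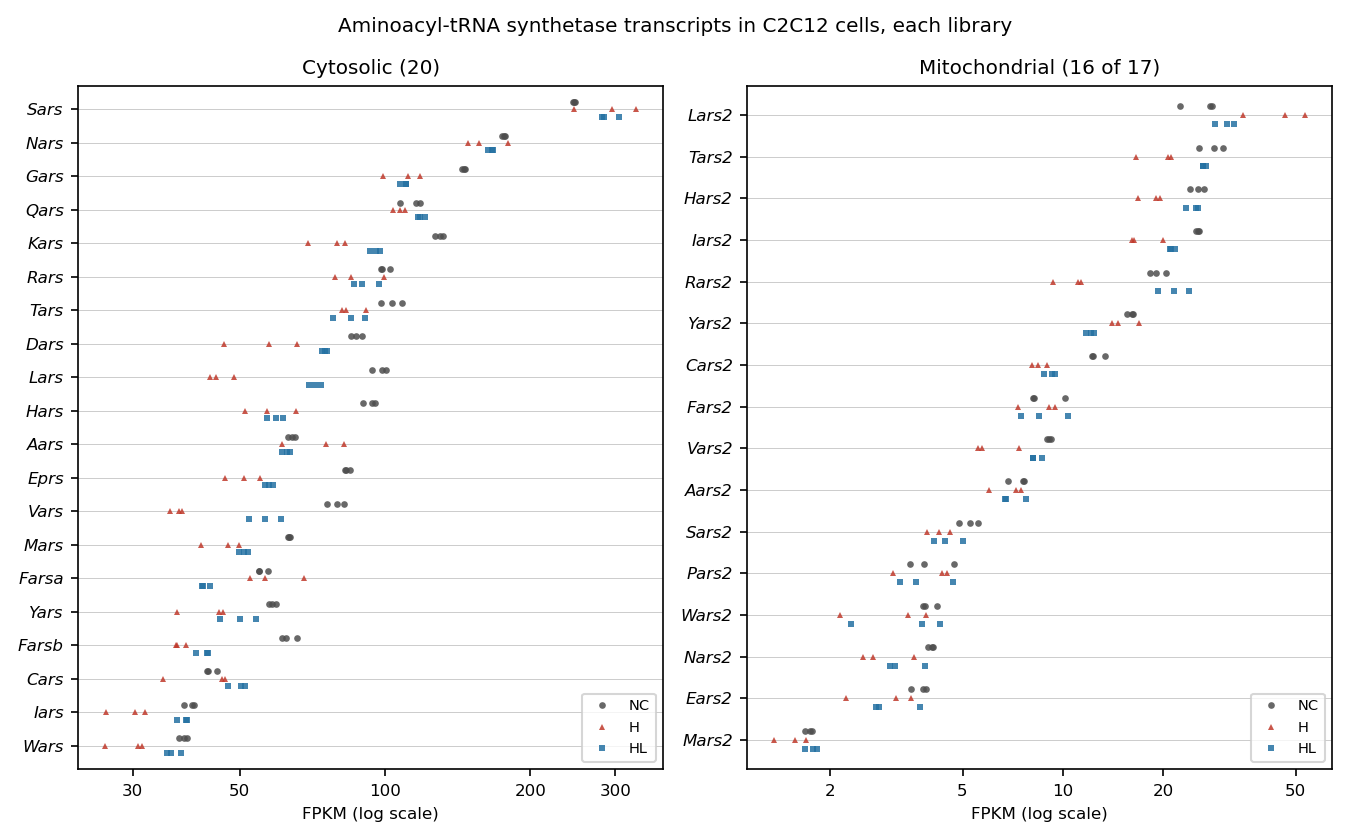
FPKM of 36 of the 37 synthetase genes in each of the 9 libraries, on a log scale, with genes ordered by their mean; circles are NC, triangles H and squares HL, 3 libraries each. For most genes the H triangles lie to the left of the NC circles, as for Lars and Vars, while Lars2 has its H libraries at the right.

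Compared with the NC group, most synthetase transcripts were lower in the H group. Of the 37 genes, 22 fell at an adjusted p under 0.05, 1 rose and 14 did not pass, in limma on log2(FPKM + 0.1) with Benjamini-Hochberg adjustment over 13674 tested genes. Over all tested genes 33% passed lower and 27.1% passed higher in this comparison. The median log2 fold change of the members was -0.42, against -0.04 over all tested genes. At the thresholds of the study's methods, which add an absolute log2 fold change over 1, 2 members were called lower (Lars and Vars) and 0 higher, against 5.75% of all tested genes called lower and 10.3% called higher. At an unadjusted p under 0.05 Sars would join Lars2 among the members that were higher, and Rars, at -0.19, would join those that were lower. For 23 members every H library lay below every NC library and for 1 every H library lay above, against 35.7% and 29.7% of all tested genes.

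The FPKM totals were lowest in H, and the scale on which libraries are set equal moved these values. With each library rescaled to TPM, the median over all tested genes shifted from -0.04 to 0.15 and that of the members from -0.42 to -0.22, so the members lay 0.37 below all genes on either scale. On the TPM scale 18 members were lower and 4 higher, with Aars, Farsa and Sars joining Lars2, and no member was called lower, since Lars stood at -0.91 and Vars at -0.90. Over all tested genes 20.9% passed lower and 38.6% passed higher on that scale. The 22 that had fallen and Lars2 kept their sign in every alternative setting in which they were tested, and 17 of the 22 also stayed past the threshold in all of them.

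Lars, the cytosolic leucyl-tRNA synthetase (ENSMUSG00000024493.10), which also serves as a leucine sensor for the growth kinase mTORC1, fell most. Its level was 98.6, 100.2 and 93.9 FPKM in NC, 43.4, 44.7 and 48.5 FPKM in H and 69.6, 73.7 and 71.6 FPKM in HL. The 3 groups did not overlap, with HL between the others. The log2 fold change of H against NC was -1.10 (SE 0.06, adjusted p = 5.75e-07), a mean of 46.7% of the NC level.

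Vars, the cytosolic valyl-tRNA synthetase (ENSMUSG00000007029.17), showed nearly the same profile. It was at 79.6, 82.2 and 75.8 FPKM in NC, 37.5, 38.0 and 35.8 FPKM in H and 56.5, 52.2 and 60.9 FPKM in HL, again with no overlap between the groups. Its log2 fold change of H against NC was -1.09 (SE 0.07, adjusted p = 1.29e-06).

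Rars2, the mitochondrial arginyl-tRNA synthetase, had the next fall given here. Rars2 (ENSMUSG00000028292.15) was at 20.4, 18.2 and 19.0 FPKM in NC, 9.34, 11.3 and 11.1 FPKM in H and 21.6, 19.3 and 23.9 FPKM in HL. For Rars2 the H libraries lay apart from all others, while NC and HL overlapped, and its log2 fold change of H against NC was -0.86 (SE 0.10, adjusted p = 8.19e-05).

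Lars2, the mitochondrial leucyl-tRNA synthetase (ENSMUSG00000035202.9), went the other way. It was at 22.5, 27.9 and 27.7 FPKM in NC, 53.5, 34.8 and 46.3 FPKM in H and 31.1, 28.7 and 32.6 FPKM in HL. Every H library was above every library of the other groups, and the H libraries were also the most spread. The log2 fold change of H against NC was 0.77 (SE 0.15, adjusted p = 0.00164), and it stayed past the threshold in all 20 alternatives. Leucine thus had the cytosolic and mitochondrial pair that differed most, -1.10 for Lars against 0.77 for Lars2, a difference of -1.87 on the log2 scale between genes that was not tested itself. For the other amino acids with 1 gene in each place, the cytosolic minus mitochondrial difference in H against NC ran from -0.55 for valine to 0.67 for arginine.

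**Figure D2:**
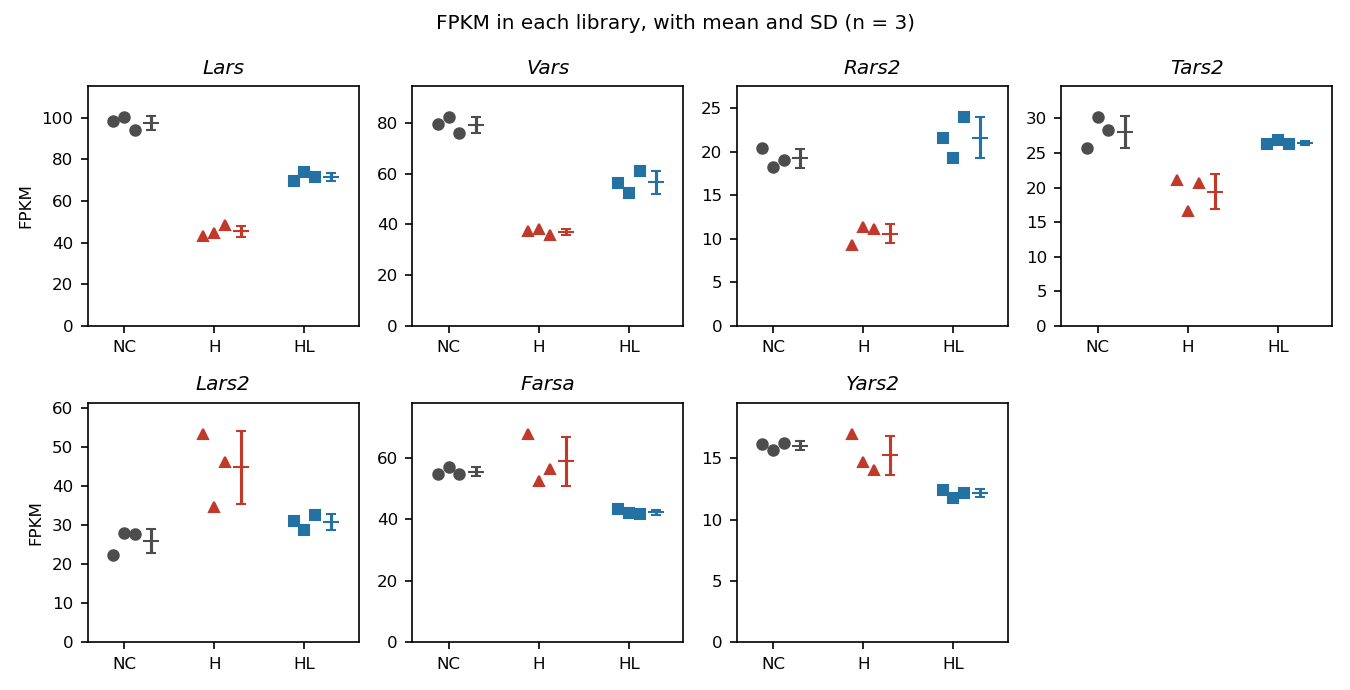
FPKM of 7 synthetase genes in each library of NC, H and HL, with the mean and SD of 3 libraries beside the points and axes from 0. Lars and Vars were lowest in H with HL in between, the HL libraries of Rars2 and Tars2 overlapped those of NC, and Lars2 was highest in H.

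Other members that fell in H included Kars and Farsb at a log2 fold change of -0.75, and the smallest fall was that of Tars at -0.28. They also included Eprs at -0.71, Hars at -0.69 and Dars at -0.64 among the cytosolic genes, and Cars2 at -0.57, Vars2 at -0.55, Iars2 at -0.54 and Tars2 at -0.53 among the mitochondrial ones. Yars no longer passed on the TPM scale over nuclear genes, Tars and Wars did not pass on either TPM scale, and neither did Nars2 and Sars2, the low mitochondrial genes for asparagine and serine. Nars2 passed in 12 of 19 alternatives and was also lost without any 1 of the NC libraries, without H replicate 1 or without H replicate 2. Sars2 passed in 6 of 19, and its call was lost in most of the fits that left out 1 library and with no filter, centring, variance weights, only the groups compared or a replicate block. The cytosolic members that did not pass the adjusted p were Aars, Cars, Farsa, Nars, Qars, Rars and Sars, with log2 fold changes between -0.19 (Rars) and 0.23 (Sars). Sars, with an adjusted p of 0.0561 by limma, passed in 6 of 20 alternatives, always as higher in H. Without H replicate 2 its log2 fold change was 0.35 with an adjusted p of 0.000975. Of the mitochondrial genes, Aars2, Ears2, Fars2, Mars2, Pars2, Wars2 and Yars2 did not pass.

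By compartment, 13 of 20 cytosolic genes fell and the other 7 did not pass, with a median log2 fold change of -0.42, and 9 of 17 mitochondrial genes fell and 1 rose, with a median of -0.35. For all tested genes the shares were 33% lower and 27.1% higher. Of the 8 synthetases of the multisynthetase complex (Dars, Eprs, Iars, Kars, Lars, Mars, Qars and Rars) 6 fell, with a median of -0.54, and of the 12 cytosolic genes outside it 7 fell, with a median of -0.33. The summed level of the 8 was 702 to 727 FPKM in NC, 491 to 506 FPKM in H and 590 to 612 FPKM in HL, so these sums did not overlap. Outside the complex the sums were 1155 to 1177 FPKM in NC, 913 to 1135 FPKM in H and 1035 to 1059 FPKM in HL, with HL inside the range of H. The mitochondrial genes summed to 227 to 236 FPKM in NC, 178 to 199 FPKM in H and 206 to 215 FPKM in HL. The difference between these sets of genes was not tested. By structural class, 10 of 18 class I genes fell and 1 rose, and 11 of 18 class II genes fell. Eprs holds an active site of each class and was counted in neither.

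**Figure D3:**
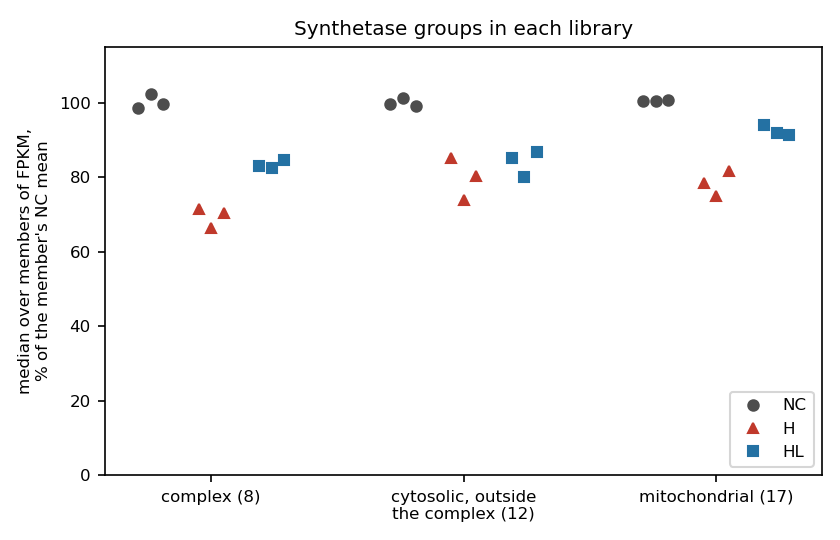
Median, over the members of each set, of the FPKM in a library as a percentage of the member's NC mean, for the 8 genes of the multisynthetase complex, the 12 other cytosolic genes and the 17 mitochondrial genes; each point is 1 library. The H libraries were at 66.4% to 71.4% for the complex, 73.8% to 85.3% for the other cytosolic genes and 74.9% to 81.6% for the mitochondrial genes.

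Farsa and Farsb encode the alpha and beta subunits of 1 enzyme, cytosolic phenylalanyl-tRNA synthetase. Farsa was at 54.8, 57.1 and 54.7 FPKM in NC, 67.8, 52.5 and 56.5 FPKM in H and 43.3, 41.9 and 41.8 FPKM in HL. Its H libraries overlapped those of NC, with a log2 fold change of 0.08 (SE 0.09, adjusted p = 0.449), while HL lay below both groups. Farsb, shown as its partner although its change was not among the largest, was at 62.5, 65.8 and 61.1 FPKM in NC, 36.8, 37.1 and 38.7 FPKM in H and 40.6, 43.0 and 42.7 FPKM in HL. Here H and HL both lay below NC, with a log2 fold change of H against NC of -0.75 (SE 0.05, adjusted p = 2.96e-06).

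The H libraries differed among themselves more than those of the other groups. The median coefficient of variation over the 37 members was 2.6% in NC, 11% in H and 3.71% in HL, against 5.11%, 12% and 6.09% over all tested genes. For 14 of 20 cytosolic and 6 of 17 mitochondrial members H replicate 2 was the lowest of the 3 H libraries, as it was for 41.1% of all tested genes. Without that library 3 members rose and 20 fell in H against NC, with Aars at 0.30 and Sars at 0.35 joining Lars2. In that fit 27.0% of all tested genes passed higher and 35.4% passed lower.

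Compared with the H group, the transcripts of 15 members were higher in the HL group, 3 were lower and 19 did not pass. Over all tested genes 26.7% passed higher and 21.7% passed lower. The median log2 fold change was 0.15 for the members and 0.04 for all genes. With the fold threshold 1 member, Rars2, was called higher and 0 lower, against 3.55% and 5.83% of all tested genes. On the TPM scale 10 members were higher and 4 lower, with a median of 0.06 against -0.06 over all genes, and no member was called. The shares of all tested genes on that scale were 18.4% higher and 27.6% lower. For 16 members every HL library lay above every H library and for 3 below, against 30.4% and 24.9% of all tested genes. This comparison shares its H libraries with that of H against NC.

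Rars2 had the largest rise, to a mean of 21.6 FPKM in HL from 10.6 FPKM in H, a log2 fold change of 1.02 (SE 0.10, adjusted p = 6.24e-05). The adjusted p stayed under 0.05 in all 20 alternatives, but the fold lay close to the threshold and fell under it without H replicate 1, at 0.93, or without HL replicate 3, at 0.95. Lars rose by 0.65 (SE 0.06, adjusted p = 2.89e-05) and Vars by 0.60 (SE 0.07, adjusted p = 0.000101) on the log2 scale. Tars2, for mitochondrial threonine, was at 25.7, 30.2 and 28.4 FPKM in NC, 21.1, 16.6 and 20.6 FPKM in H and 26.4, 26.8 and 26.3 FPKM in HL, and rose by 0.45 (SE 0.10, adjusted p = 0.00444). In each of these 4 genes every HL library was above every H library.

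The 3 members that fell in HL against H were Lars2, Farsa and Yars2. Lars2 had a log2 fold change of -0.52 (SE 0.15, adjusted p = 0.0172), and this call was lost without H replicate 1, without H replicate 3 or without HL replicate 2, where the adjusted p was 0.0501, 0.0545 and 0.0591. Farsa had a log2 fold change of -0.47 (SE 0.09, adjusted p = 0.00185). Yars2, the mitochondrial tyrosyl enzyme, was at 16.2, 15.6 and 16.3 FPKM in NC, 16.98, 14.7 and 14.0 FPKM in H and 12.4, 11.8 and 12.2 FPKM in HL, with a log2 fold change of -0.32 (SE 0.08, adjusted p = 0.00842). For Farsa and Yars2, HL was thus the group that stood apart, and NC and H overlapped.

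By set, 6 of the 8 genes of the multisynthetase complex were higher in HL than in H and the other 2 did not pass, with a median log2 fold change of 0.25. Of the 12 other cytosolic genes 3 were higher and 1 was lower, with a median of 0.04, and of the 17 mitochondrial genes 6 were higher and 2 lower, with a median of 0.13. Over all tested genes 26.7% passed higher and 21.7% passed lower, with a median of 0.04. Gars, Hars and Tars, which had fallen in H, were at 0.00, 0.04 and -0.01 in HL against H, with 95% intervals of -0.14 to 0.15, -0.15 to 0.23 and -0.18 to 0.15. Other members that passed as higher included Dars, Eprs, Farsb, Hars2, Iars, Iars2, Kars, Qars, Vars2 and Wars, between 0.15 (Qars) and 0.42 (Dars). The small rises of Eprs and Qars, both in the complex, passed in 8 and 9 of 20 alternatives and were lost in most of the fits without 1 library, each of the 3 HL libraries included. Farsb passed in 13 of 20 and was lost without HL replicate 2 or HL replicate 3, and Iars2 passed in 16 of 20 and was lost without H replicate 3 or HL replicate 1.

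**Figure D4:**
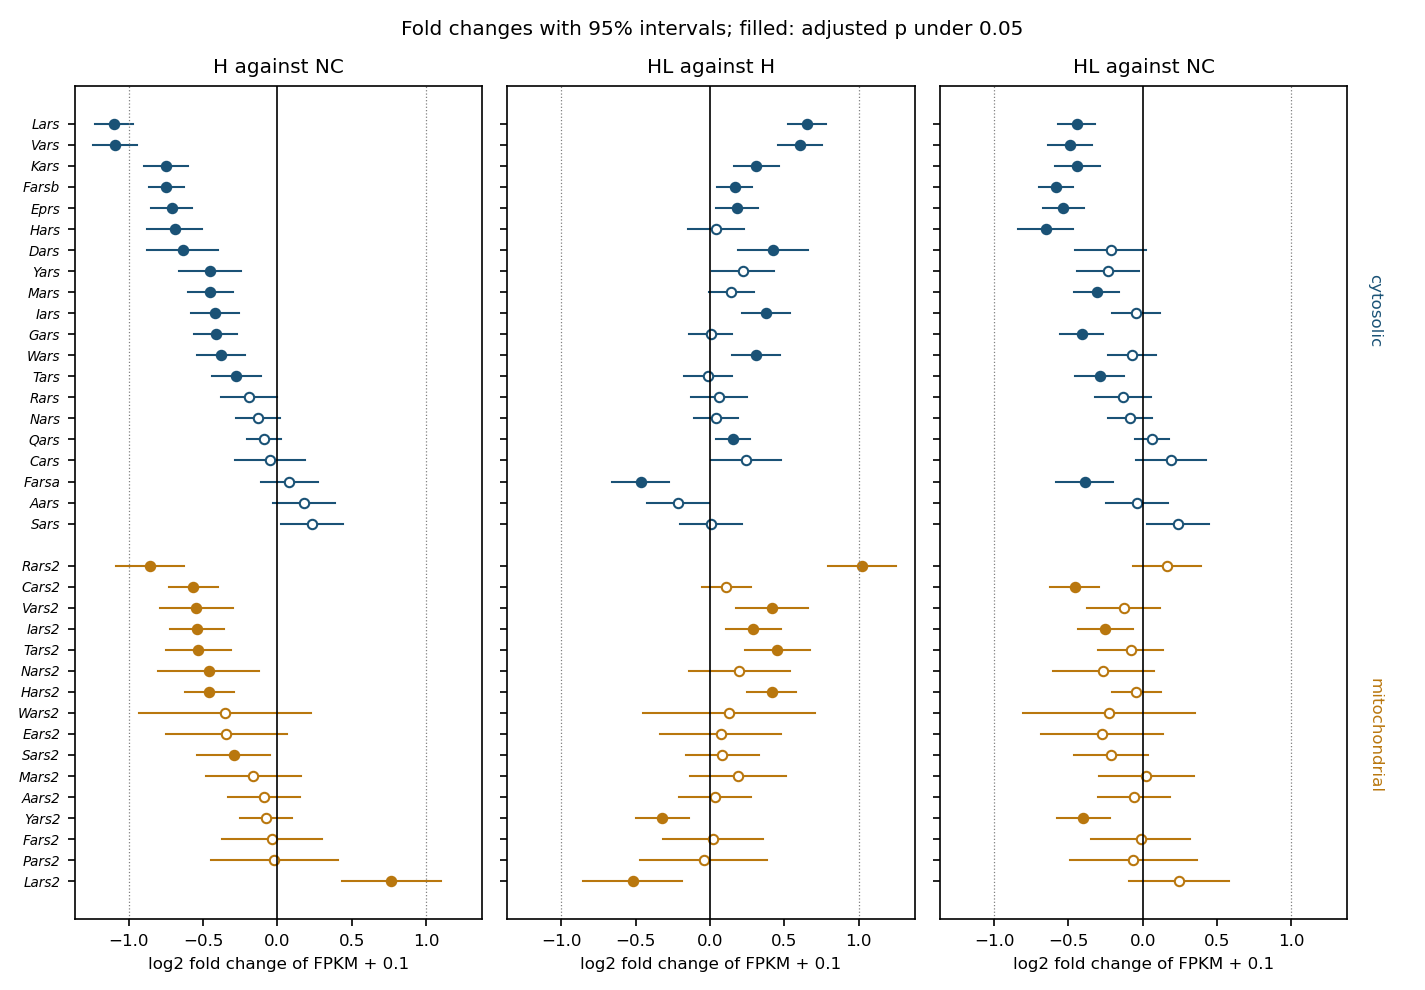
Log2 fold change of FPKM + 0.1 with its 95% interval for 36 of the 37 members in H against NC, HL against H and HL against NC, cytosolic genes above and mitochondrial genes below; filled points have an adjusted p under 0.05 and dotted lines mark 1 and -1. In H against NC 21 of the filled points lie left of 0 and 1, Lars2, lies right of it, and in HL against NC all 13 filled points lie left of 0.

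Compared with the NC group, 14 members were lower in HL, 0 were higher and 23 did not pass by limma, where 27.2% of all tested genes were lower and 21.6% higher. At an unadjusted p under 0.05 the count that was higher was 1, Sars, and Yars, at -0.23, would join the members that were lower. No member was called with the fold threshold, against 2.41% of all genes called lower and 6.3% called higher. The median log2 fold change was -0.21, against -0.04 over all genes. For 20 members every HL library lay below every NC library and for 3 above, against 36.3% and 29.5% of all tested genes. On the TPM scale 13 members were lower and 2 higher, against 19.4% and 27% of all tested genes. The median there was -0.12 for the members and 0.05 for all genes. Hars at -0.65, Farsb at -0.58 and Eprs at -0.53 were among the largest falls. Rars2 had a log2 fold change of 0.16 with a 95% interval of -0.07 to 0.39, and Lars2 one of 0.25 with an interval of -0.09 to 0.58, and neither passed. Of the 20 cytosolic genes 10 were lower, and of the 17 mitochondrial genes 4, of which Iars2 passed in 11 of 20 alternatives and was lost in each fit without 1 NC or 1 HL library.

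Of the 20 cytosolic genes, 13 are listed as ATF4 targets, and 9 of these fell in H and 4 did not pass, with a median log2 fold change of -0.42. Of the 7 not listed, 4 fell, with a median of -0.64, where 33% of all tested genes passed lower. The list holds Lars and Vars, and also Aars, Cars, Nars and Sars, which did not pass. Atf4 itself, named for its role and not for its change, had means of 244 ± 1.66 FPKM in NC, 286 ± 34.3 FPKM in H and 246 ± 4.64 FPKM in HL (SD, n = 3), with a log2 fold change of H against NC of 0.22 (SE 0.07, adjusted p = 0.0273).

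The promoters of the members were searched for the core of the amino acid response element, TGATGNAA, at which ATF4 binds with C/EBP proteins. The windows were RefSeq promoters of GRCm38.p6 from 250 bases before to 50 bases after the start, and 27 of the 37 members had one. On either strand 5 of 27 (18.5%) held the core, against 4.51% of all 27018 promoters. The 5 were Aars, Gars, Iars, Tars and Yars, all on the ATF4 list, which had 8 genes in the promoter table, while 0 of the 19 other members there held it. None of these 5 is among the genes with the largest changes, and they are shown for the match alone. For each of the 5 genes 1 match is shown, and each stretch of 30 bases is written 5′ to 3′ on the strand of the match, with the 8 matching bases in capitals.
Aars chr8:111033840-111033869, minus strand, 9 bases after the start: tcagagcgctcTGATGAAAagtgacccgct
Gars chr6:55037960-55037989, minus strand, 30 bases before the start: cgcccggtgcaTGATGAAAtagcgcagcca
Iars chr13:49682126-49682155, minus strand, 7 bases after the start: gcgtctggaggTGATGCAAtactgacagtg
Tars chr15:11399655-11399684, plus strand, 15 bases before the start: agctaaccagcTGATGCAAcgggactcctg
Yars chr4:129189895-129189924, plus strand, 3 bases after the start: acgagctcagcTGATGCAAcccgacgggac

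The stretches of Iars, Tars and Yars hold TGATGCAA, and those of Aars and Gars hold TGATGAAA. In H against NC these 5 genes had log2 fold changes of 0.18 (Aars, adjusted p = 0.128), -0.42 (Gars), -0.42 (Iars), -0.28 (Tars) and -0.45 (Yars), so 4 of them fell. The E-box CACGTG, the site of MYC and USF factors, was in 5 of 27 member promoters (18.5%: Aars, Ears2, Farsb, Iars and Tars) against 8.09% of all. The full cAMP response element TGACGTCA was in 0 of 27 against 2.03% of all. No match of one motif in a member shared bases with a match of another, and a match is a description of the sequence only.

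Of 15 genes for cofactors and relatives of the synthetases, the transcripts of 11 fell, 1 (Prorsd1) rose and 3 did not pass in H against NC. Among all tested genes 33% passed lower and 27.1% higher. The scaffold proteins of the multisynthetase complex, named for their role, had log2 fold changes of -0.40 for Aimp1, -0.32 for Aimp2 and -0.26 for Eef1e1, of which the last did not pass (adjusted p = 0.0704). In HL against H, Aimp1 rose by 0.40 while Eef1e1 changed by -0.44 (adjusted p = 0.0103). Dtd1, which removes D-amino acids from mischarged tRNAs, was the 1 gene of this list that was called, at 6.04 ± 0.46 FPKM in NC and 2.90 ± 0.40 FPKM in H (SD, n = 3), a log2 fold change of -1.04 (SE 0.13, adjusted p = 0.000115).

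Among other parts of the translation machinery, 4 of 5 tested elongation factors of the cytosol and 5 of 8 tested mitochondrial translation factors fell in H, and the others did not pass. The share of all tested genes that fell in H was 33%, and 27.1% rose. Of 83 tested cytosolic ribosomal protein genes, 76 fell and 1 rose, with a median log2 fold change of -0.64, and of 78 mitochondrial ribosomal protein genes 55 fell and 6 rose, with a median of -0.43. In HL against H, 64 cytosolic ribosomal protein genes were higher and 2 lower, with a median of 0.27, and 22 mitochondrial ones were higher and 12 lower. Here 26.7% of all tested genes passed higher and 21.7% lower. The largest fall of each list was that of Rpl22l1 at -1.16 and of Mrpl42 at -1.03.

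The other 26 ATF4 targets did not move as 1 group. In H against NC 10 rose and 11 fell, with a median of -0.10, against 27.1% and 33% of all tested genes. The largest changes were those of Nupr1 at 3.45, Atf3 at 2.36 and Chac1 at 2.24, all genes known from stress responses. With the fold threshold 5 of the 26 were called higher and 5 lower, against 10.3% and 5.75% of all tested genes. The lowest log2 fold change of the list was -1.57. In HL against H 4 rose and 13 fell, against 26.7% and 21.7% of all tested genes. Nupr1 stood at -2.89, Chac1 at -1.39 and Atf3 at 0.39. The H replicate that was lowest for most cytosolic synthetases was also the lowest for 19 of these 26 genes, against 41.1% of all tested genes. It was the lowest for 6 of the 17 mitochondrial synthetases.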

How the data were processed

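Libraries of mRNA from C2C12 cells of 3 groups, with 3 libraries each, were trimmed by the authors with fastp, aligned with HISAT2 (version 2.1.0) and quantified with StringTie (version 1.3.3b). The authors deposited FPKM for each gene in each library, and these values are the only ones used. The name of the deposited table points to salmon rather than StringTie, so the quantifier is not certain. The submitters' processing notes name the build mm39 and the methods another genome, while the table lists mouse Ensembl genes. Gene coordinates were left out, and the promoter coordinates are those of RefSeq GRCm38.p6. FPKM is scaled to mapped reads and length, so no count test was run, and a library with many reads from a few genes has lower values elsewhere.

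The log2 of FPKM plus a pseudocount of 0.1 was compared by limma 3.58.1 in R 4.3.3 (statmod 1.5.0), using the trend and robust options. All 9 libraries entered the same model, which left 6 residual degrees of freedom. The 13674 genes that reached 1 FPKM in 3 or more libraries entered, with Benjamini-Hochberg adjustment within each comparison. The fit was tested on simulated data. Fold changes understate the change of genes near 0. At this depth 1 FPKM stands for roughly 16 to 21 reads per kilobase. No value was identical between libraries of a group. Cytosolic ribosomal protein genes were taken by symbol, without the Rps6k kinases.

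The members, the gene lists, the markers and the alternatives were chosen with earlier results of these data known. Values in every library are given for members called in any comparison, for the 4 largest rises and falls among those with an adjusted p under 0.05 in H against NC and in HL against H, for the highest and lowest member, for the pair of 1 amino acid that differed most, and for Farsb, which was added after its values were seen. In other lists up to 3 called genes are named, beside Atf4, Aimp1, Aimp2 and Eef1e1. Other settings tried were TPM over all or over nuclear genes, median centring, a pseudocount of 0.01 or 1, a mean of 5 FPKM as the filter or none, limma without its robust option or with variance weights per group, models of the compared groups alone, a replicate block, each library left out, and for promoters only the 150 bases before the start. Figures were drawn in Python 3.11.15 with matplotlib 3.10.9. A gene and a promoter stretch that these rules take are not reported here and were left out of the plots of single genes, while counts, sums and medians cover all 37 members.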

Additional observations from a re-analysis of the deposited data

How the results depend on the processing

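Over 20 alternatives for each comparison, the members that passed kept their direction, and 18 of 23 in H against NC, 12 of 18 in HL against H and 11 of 14 in HL against NC passed in every alternative in which they were tested. The members higher in H than in NC numbered 2 when a mean of 5 FPKM was required, with centring on the median or with variance weights per group, and 4 with TPM over all or over nuclear genes. On those TPM scales 38.6% and 40.9% of all tested genes passed higher. The shares were 24.4% with the mean of 5 FPKM, 28.2% with centring and 23.8% with variance weights. With either TPM scale the members called numbered 0 in H against NC (lower) and 0 in HL against H (higher). A pseudocount of 1 also gave 0 in HL against H. Of all 13674 tested genes, 538 with TPM and 505 with TPM over nuclear genes were called lower in H against NC. In HL against H 383 and 411 were called higher on these scales, and 256 with the pseudocount of 1. The members higher in HL than in NC numbered 2 with TPM, 4 with TPM over nuclear genes, 1 with centring, and 2 with variance weights or with only the groups compared. Of all tested genes 27% passed higher in HL with TPM and 30.9% with TPM over nuclear genes. Leaving out 1 library gave 1 to 3 members higher in H than in NC (3 without H replicate 2), 0 to 1 called higher in HL against H (0 without H replicate 1 or HL replicate 3), and 0 to 2 higher in HL than in NC (2 without H replicate 2, 1 without H replicate 1). TPM over all genes sums each library to the same total, and TPM over nuclear genes does so for the nuclear genes alone. Each raises the H values relative to the other groups, as its own construction implies.

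No member that had passed changed sign in any alternative. Of the members that had not passed, 10 of 14 in H against NC, 12 of 19 in HL against H and 13 of 23 in HL against NC changed sign in at least 1. Among the members described library by library, Mars2 in H against NC was at 0.019 with TPM and 0.044 with TPM over nuclear genes, Yars2 at 0.11 and 0.14, and Farsa ran from -0.027 without H replicate 1 to 0.16 without H replicate 2. In HL against H, Sars was at -0.090 and -0.065 on the TPM scales and ran from -0.11 without H replicate 2 to 0.11 without H replicate 1, with -0.030 without HL replicate 2. In HL against NC, Tars2 was at 0.016 and 0.067 on the TPM scales, and Mars2 ran from -0.00041 without HL replicate 1 to 0.055 without HL replicate 3. The cause was not tested.

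Same-numbered libraries of different groups shared little deviation from their group means, with correlations of -0.037 to 0.091. Whether they were handled together cannot be told from these values. With the replicate numbers as a block, 1 member was higher and 21 lower in H against NC. In HL against H 15 were higher and 3 lower, and in HL against NC 15 were lower. Of all tested genes 26.4% passed higher and 32.4% lower in H against NC with this block. The shares were 25.6% higher and 20.9% lower in HL against H, and 20.8% higher and 26.2% lower in HL against NC. In the 150 bases before the start alone, TGATGNAA was in 11.1% of member promoters against 2.54% of all, CACGTG in 11.1% against 4.92%, and TGACGTCA in 0 of 27 against 1.58%. Low mitochondrial genes such as Wars2 and Ears2 have wide intervals. In H against NC the 95% intervals were -0.93 to 0.23 for Wars2 and -0.75 to 0.06 for Ears2. Both held 0 and also the log2 fold change of Cars2, -0.57.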
